A study of Mus musculus with 6 samples.

Results

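The ligands of the chemokine receptor CXCR3 were examined in cultured bone marrow cells from mice with acute graft-versus-host disease. They are Cxcl9 (ENSMUSG00000029417), Cxcl10 (ENSMUSG00000034855) and Cxcl11 (ENSMUSG00000060183). They were chosen by name as the 3 known mouse CXCR3 ligands out of 49328 listed genes, and all 3 were found in the table. The choice was made with earlier results of these data known. In acute graft-versus-host disease (aGVHD) donor immune cells attack the tissues of a transplant recipient. The cells were labelled as mesenchymal stromal cells (MSCs, the adherent stromal cells of marrow) of CB6F1 mice, an F1 cross of BALB/c and C57BL/6. They came from digested, unsorted marrow and were cultured in DMEM (high-glucose) with FBS and P/S. They then received either a compound labelled only R, at 0.5 um with the unit as labelled, or DMSO, the vehicle. Each group had 3 libraries, and both shared the disease, the strain and the culture. The sources used here do not give what R is, how long the cells were treated, the age and sex of the mice or whether animals were pooled.

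CXCL9, CXCL10 and CXCL11 are small secreted CXC chemokines that attract activated T cells and NK cells bearing CXCR3. Interferon-gamma is the classical inducer of all 3 genes, through the JAK kinases and interferon regulatory factors. Cxcl10 is also induced by type I interferon and by NF-kappaB, and macrophages and stromal cells can both make these chemokines. In graft-versus-host disease they are known as signals that draw donor T cells into recipient tissue. The question put to the data was whether cultures treated with R and their vehicle controls differed in these transcripts.

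The 3 genes lie side by side on the minus strand of chromosome 5 (GRCm38; GENCODE M21). Cxcl9 spans 92321347 to 92328079, Cxcl10 spans 92346638 to 92348889 and Cxcl11 spans 92359544 to 92365485. Cxcl10 and Cxcl11 lie within the span of Art3, an ADP-ribosyltransferase gene on the plus strand. The strandedness of the libraries is not given, but Art3 itself was listed at only 0 to 0.179 FPKM (fragments per kilobase of gene, scaled for the depth of the library). Cxcl9 and Cxcl10 are annotated as protein-coding, whereas Cxcl11 is annotated as a polymorphic pseudogene, a gene that is intact in some strains and disrupted in others.

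The upstream sequences of Cxcl9 and Cxcl10 are shown because interferon and NF-kappaB signals are known to act there. Each is the 250 bases before the annotated start, 5′ to 3′ on the gene's strand, from RefSeq on GRCm38.p6, and 2 of the 3 genes had an entry. Capitals mark matches to the GAS motif (TTCNNNGAA), the ISRE core (GAAA, any 2 bases, GAAA) or the NF-kappaB motif.
Cxcl9, chr5:92328080-92328329, minus strand: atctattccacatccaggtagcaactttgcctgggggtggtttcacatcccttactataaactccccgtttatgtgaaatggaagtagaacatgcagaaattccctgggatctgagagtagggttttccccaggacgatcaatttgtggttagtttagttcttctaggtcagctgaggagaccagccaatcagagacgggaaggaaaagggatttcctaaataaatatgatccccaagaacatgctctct
Cxcl10, chr5:92348890-92349139, minus strand: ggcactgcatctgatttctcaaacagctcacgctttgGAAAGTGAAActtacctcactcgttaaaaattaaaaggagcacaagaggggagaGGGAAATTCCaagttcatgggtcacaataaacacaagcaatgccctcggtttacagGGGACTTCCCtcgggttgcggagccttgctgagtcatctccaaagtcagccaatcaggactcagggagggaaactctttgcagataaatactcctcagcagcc
The Cxcl10 window held 1 ISRE core, 213 to 204 bases before the start, and 2 NF-kappaB matches, at 159 to 150 and 103 to 94 bases. It also held 1 AP-1 motif (TGANTCA) at 74 to 68 bases and no GAS motif. The Cxcl9 window held none of these 4 motifs as spelled, and 1 TATA motif (TATAAA) at 195 to 190 bases. Searched on both strands, an ISRE core stood in 2.98% of the 32851 RefSeq promoter windows of the same length, an NF-kappaB match in 3.9%, a GAS motif in 7.02%, an AP-1 motif in 6.75% and a TATA motif in 12.4%. None of the matches in the Cxcl10 window overlapped another. A match is only a description of the letters in the window.

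The Cxcl11 sequence is shown for the site that divides its 2 annotated transcript models. The line gives the coding part of the first exon, 60 bases from the start codon, from the GENCODE M21 transcripts of the C57BL/6J reference. Capitals mark 2 bases (92363177 to 92363178, coding bases 37 and 38) that the protein-coding model leaves out.
Cxcl11, chr5:92363155-92363214, minus strand: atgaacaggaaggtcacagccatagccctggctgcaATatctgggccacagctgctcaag
The pseudogene model, which keeps these bases, meets a stop codon after 36 codons, in exon 2. The protein-coding model, which skips them, has 99 codons before its stop. C57BL/6 mice, one parent of the CB6F1 cross, are known to carry a frameshift in Cxcl11. Which parental allele the reads came from was not analysed here.

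The 6 libraries held 17068016 to 21748854 reads, as estimated from the deposited values. Pearson's r across kept genes was 0.977 to 0.986 between libraries of the same group and 0.936 to 0.963 between groups, and genes are not independent replicates. Macrophage transcripts were abundant in all 6 libraries although the cells were labelled MSCs. The labels do not state that replicates were separate animals or cultures, and the p-values then rest only on the spread between libraries, which may be technical.

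Cxcl9 and Cxcl10 were well expressed in vehicle cultures and nearly absent in R. Cxcl11 was barely detected in vehicle and not at all in R. Of the 3 genes, 2 passed the filter on low values (3 or more libraries with an FPKM of 1 or higher, met by 11862 genes), and both fell. Both passed it only through the vehicle libraries, every R value being under 1, so a difference between the groups was partly set by the filter and nothing is read from the count itself. At an adjusted p of 0.05 in limma, 4.43% of all kept genes fell in R and 2.39% rose, 6.82% in all. In each of the 3 ligands every R library lay below every vehicle library, as was so for 15.5% of kept genes, a set without Cxcl11. The cultures were bulk samples, so fewer cells that make a transcript and less of it per cell cannot be told apart.

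Cxcl9, which recruits T cells and is the ligand most dependent on interferon-gamma, stood at 28, 35.2 and 20.7 FPKM in vehicle replicates 1, 2 and 3. In R replicates 1, 2 and 3 it stood at 0.0915, 0.147 and 0 FPKM. Vehicle replicate 2 was the highest, and the lowest vehicle library was still far above the highest R library. In reads, these values came to 1441, 1990 and 1247 in vehicle and to 6, 8 and 0 in R. The mean went from 28 ± 7.28 to 0.0797 ± 0.0745 FPKM (SD, n = 3), so that 0.285% of the vehicle level was left. As log2(FPKM + 1), a scale that understates changes at low levels, Cxcl9 fell by 4.72 (SE 0.18, limma, adjusted p = 5.5e-05). Pooled over libraries the read rate was 346-fold higher in vehicle, with a 95% exact counting interval of 206 to 633 that covers counting error only. Without R replicate 2 the share left was 0.164% and the ratio 556, and without R replicate 3, which had no reads, they were 0.427% and 238. Among kept genes Cxcl9 ranked 2003rd by mean level in vehicle and 11846th in R. Cxcl9 was kept only through vehicle, so its low rank in R was largely set by the filter.

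Cxcl10, known as the interferon-inducible protein of 10 kilodaltons, stood at 17.1, 21.1 and 20.9 FPKM in vehicle replicates 1, 2 and 3. In R replicates 1, 2 and 3 it stood at 0.449, 0.543 and 0.147 FPKM. The vehicle libraries lay close together, and R replicate 3 was the lowest for Cxcl10 as it was for Cxcl9. The reads were 658, 891 and 942 in vehicle and 22, 22 and 6 in R. The mean went from 19.7 ± 2.25 to 0.38 ± 0.207 FPKM (SD, n = 3), leaving 1.93% of the vehicle level. Cxcl10 fell by 3.91 on the log2 scale (SE 0.14, limma, adjusted p = 5.5e-05). By p-value it ranked 3rd and Cxcl9 5th of the 11862 kept genes. Both entered that set only through vehicle, so nothing is read from these ranks. The pooled read rate of Cxcl10 was 51.6-fold higher in vehicle (95% exact counting interval 39 to 69.7). By mean level it ranked 2814th of the kept genes in vehicle and 11824th in R, a low rank that the filter likewise largely set.

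Cxcl11, the ligand with the highest affinity for CXCR3 where it is made, stood at 0.154, 0.239 and 0.171 FPKM in vehicle and was listed at 0 in each R library. These values came to 10, 17 and 13 reads in vehicle against 0 in R. All Cxcl11 reads were thus in vehicle libraries, and few. Against a floor of 3 reads over the R group, the vehicle mean of 0.188 ± 0.0448 FPKM (SD, n = 3) was at least 13.8-fold higher. Cxcl11 did not pass the filter, and the exact two-sided permutation test over the 6 libraries gave p = 0.1, the smallest value that 3 against 3 allows. Fitted without a filter, where 1.09% of 25575 genes fell, it was lower in R by a log2 change of -0.25 (SE 0.04, limma, adjusted p = 0.04). The level depends on the length used: with the 1581 bases of the shorter model in place of 3794 the vehicle values would be 0.371, 0.574 and 0.411 FPKM.

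**Figure D1:**
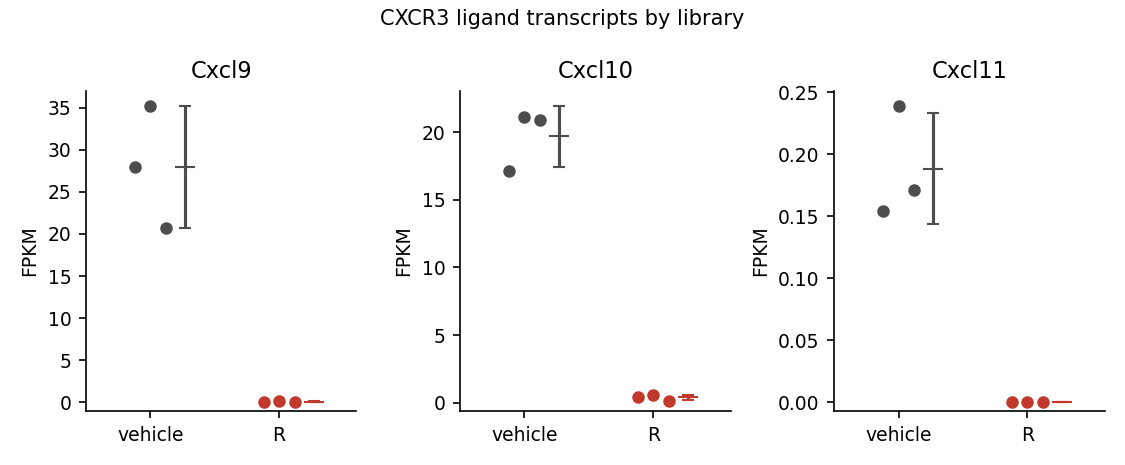
FPKM (y axis, linear, a separate scale for each gene) of Cxcl9, Cxcl10 and Cxcl11 in the 3 vehicle and 3 R libraries. Points are libraries in the order of replicates 1 to 3, and the bar beside them is the mean with its SD; every R point lies below every vehicle point, and no Cxcl11 point exceeds 0.239 FPKM.

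The ratio of Cxcl9 to Cxcl10 was lower in R than in vehicle. Per length, Cxcl9 was the higher of the pair in vehicle replicates 1 and 2, with 1.64 and 1.67 times the FPKM of Cxcl10, and the genes were about level in vehicle replicate 3 (0.988 times). In R Cxcl9 was clearly the lower of the pair in each library, with ratios of 0.204, 0.272 and 0. These ratios rest on only 6, 8 and 0 Cxcl9 reads. The difference log2(Cxcl9 + 1) minus log2(Cxcl10 + 1) was 0.46 ± 0.41 in vehicle and -0.34 ± 0.13 in R (SD, n = 3). It was thus 0.8 lower in R, and the libraries of the groups did not overlap. The exact two-sided permutation test gave p = 0.1, the smallest possible, and also 0.1 when adjusted over the 3 pairs of ligands. With a pseudocount of 0.1 in place of 1 this difference was -1.88. The 2 pairs with Cxcl11 gave differences of -4.47 for Cxcl9 and -3.67 for Cxcl10 with the same exact permutation p of 0.1, and both follow from the low level of Cxcl11.

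Summed, the 3 ligands came to 45.3, 56.6 and 41.7 FPKM in the vehicle libraries and to 0.541, 0.691 and 0.147 FPKM in the R libraries. The groups did not overlap (exact two-sided permutation p = 0.1). The other listed CXC and CX3C chemokines, which mostly act on receptors other than CXCR3, summed to 449, 599 and 368 FPKM in vehicle and to 364, 431 and 351 FPKM in R, and here the groups overlapped (exact two-sided permutation p = 0.2). The CXCR3 ligands therefore made up 9.16%, 8.64% and 10.2% of the listed chemokine FPKM in vehicle and 0.148%, 0.16% and 0.042% in R.

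Of those 13 other chemokines 8 were kept, and 1 fell, 0 rose and 7 did not pass. The median log2 change was -0.58, against 0.00 over all kept genes, of which 4.43% fell and 2.39% rose. The gene that fell was Cxcl1, a neutrophil attractant, from 15.6 ± 2.53 to 6.7 ± 0.576 FPKM (log2 change -1.1, limma, adjusted p = 0.0038). Cxcl5, another neutrophil attractant, stood at 11.2, 1.12 and 7.56 FPKM in vehicle and at 0.0247, 0.0597 and 0.119 FPKM in R, without overlap. Its vehicle values were far apart, and it narrowly missed the threshold (log2 change -2.5, limma, adjusted p = 0.0501). Cxcl5 passed the filter on low values only through vehicle. The count of falls was 2 with a pseudocount of 0.1, with the replicate number as a block, and without R replicate 1 or vehicle replicate 2. Cxcl12, the stromal factor that holds blood stem cells in marrow, Cxcl14, Cxcl16 and the platelet chemokine Pf4 did not pass, with log2 changes of -1.31, 0.61, -0.57 and -0.59. The Cxcl12 value leaned on vehicle replicate 2 (168 FPKM, against 34.8 and 43 in the other vehicle libraries) and was -0.62 without it, while with array quality weights Cxcl12 passed (limma, adjusted p = 0.042).

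**Figure D2:**
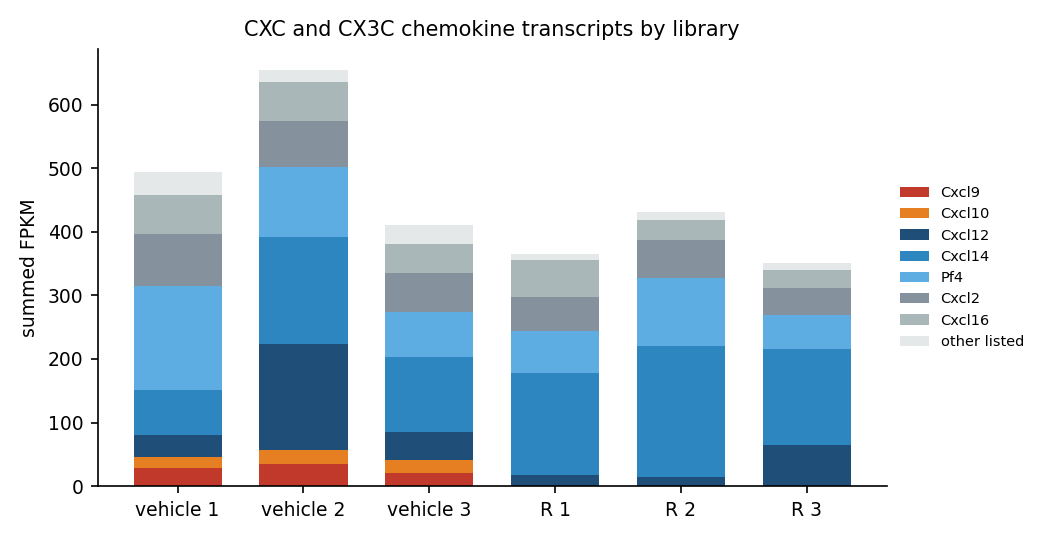
Summed FPKM (y axis, linear from 0) of the CXCR3 ligands and the other listed CXC and CX3C chemokines in each library. Cxcl11 is counted with the other listed genes; the Cxcl9 and Cxcl10 segments seen in vehicle are too thin to be seen in the R libraries, where Cxcl14 is the largest segment.

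No gene on the receptor side passed the test. Cxcr3, the G protein-coupled receptor for all 3, stood at 3.59, 3.95 and 3.58 FPKM in vehicle and at 3.37, 2.83 and 4.03 FPKM in R. The groups overlapped, and the log2 change was -0.1 (SE 0.12, limma, adjusted p = 0.67). Of the 8 listed genes for the receptor, for decoy receptors and for enzymes known to trim or modify these chemokines, 2 were kept, and 0 passed, with 1 at an unadjusted p under 0.05. That was Mmp9, a gelatinase, whose 2.11 to 22.1 FPKM in vehicle and 0.485 to 2.37 FPKM in R overlapped (log2 change -1.7, limma, adjusted p = 0.21). The highest value was that of vehicle replicate 3, without which the log2 change was -0.82. Ackr3, a scavenging receptor for CXCL11, was listed at 0.105 to 0.761 FPKM in vehicle and 0.199 to 0.687 FPKM in R. Ackr1, the Duffy-type decoy, was listed at 0 in every library, and Dpp4, a peptidase that shortens CXCL10, had 2 or 3 reads in a vehicle library and 0 to 2 in an R library. Mmp8, a collagenase, had 0.845 to 1.98 FPKM in vehicle and 0.388 to 0.711 FPKM in R. Of the citrullinating enzymes, Padi4 had 14, 17 and 10 reads in vehicle and 1, 2 and 3 reads in R, while Padi2 overlapped, at 0.701 to 0.728 and 0.41 to 1.47 FPKM.

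On the interferon path the genes that fell were transcription factors and a feedback inhibitor. Of 15 listed genes 13 were kept, and 5 fell, 0 rose and 8 did not pass (median log2 change -0.35). Over all kept genes 4.43% fell and 2.39% rose, with a median log2 change of -0.004. Irf7, a regulator of type I interferon responses, fell from 13.2 ± 2.31 to 0.599 ± 0.231 FPKM (log2 change -3.15). Every R value of Irf7 was under 1 FPKM, so it passed the filter only through vehicle and its fall was partly set by the filter. Irf1, which interferon-gamma induces and which binds ISRE-type sites, stood at 58.8, 52.9 and 36.4 FPKM in vehicle and at 6.66, 8.01 and 6.69 FPKM in R (log2 change -2.61, SE 0.18, limma, adjusted p = 0.00049). The R libraries of Irf1 lay close together and well below the lowest vehicle library, vehicle replicate 3. Irf9 and Stat2, parts of the transcription factor complex of type I interferon signalling, fell by 1.92 and by 1.72 on the log2 scale, and the feedback inhibitor Socs1 fell by 1.78.

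The receptor chains and kinases did not reach the threshold. Their log2 changes were -0.18 for Ifngr1, 0.05 for Ifngr2, -0.16 for Ifnar1, -0.26 for Ifnar2, -0.35 for Jak1, -0.27 for Jak2 and -0.31 for Tyk2, with adjusted p-values of 0.097 to 0.8 in limma. Ifngr2 changed sign without R replicate 1, at a value near 0. Jak2 passed without R replicate 3 (adjusted p = 0.049), and Ifnar2, Jak1 and Tyk2 passed with array quality weights (adjusted p = 0.037, 0.0085 and 0.034). Irf8, a factor of myeloid cells, had 28.6, 24.4 and 18.7 FPKM in vehicle and 17.5, 13.7 and 14.3 FPKM in R (log2 change -0.61, limma, adjusted p = 0.074). It passed without vehicle replicate 3, with the replicate block and with array quality weights (adjusted p = 0.027 to 0.043).

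On the NF-kappaB path 5 of 18 kept genes fell, 0 rose and 13 did not pass (median log2 change -0.25). The shares over all kept genes were 4.43% falling and 2.39% rising. Tlr4, the receptor for bacterial lipopolysaccharide, fell from 17.3 ± 3.34 to 7.78 ± 1.19 FPKM (log2 change -1.05). Tnf, which signals to NF-kappaB, fell from 43.9 ± 1.16 to 25.2 ± 3.83 FPKM (log2 change -0.79). Il1b, Tnfaip3 and Myd88 fell by 1.01, 0.47 and 0.43 on the log2 scale. The NF-kappaB subunits themselves did not pass, with log2 changes of 0.03 for Rela, -0.26 for Nfkb1, -0.12 for Nfkb2, -0.18 for Relb and -0.41 for Rel. The count of 5 went to 2 or 3 without R replicate 1, 2 or 3 or vehicle replicate 1 or 2, and to 3 with the replicate block. The calls of Il1b, Tnfaip3 and Myd88 each ended in 6 or more fits (limma, adjusted p = 0.054 to 0.15).

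**Figure D3:**
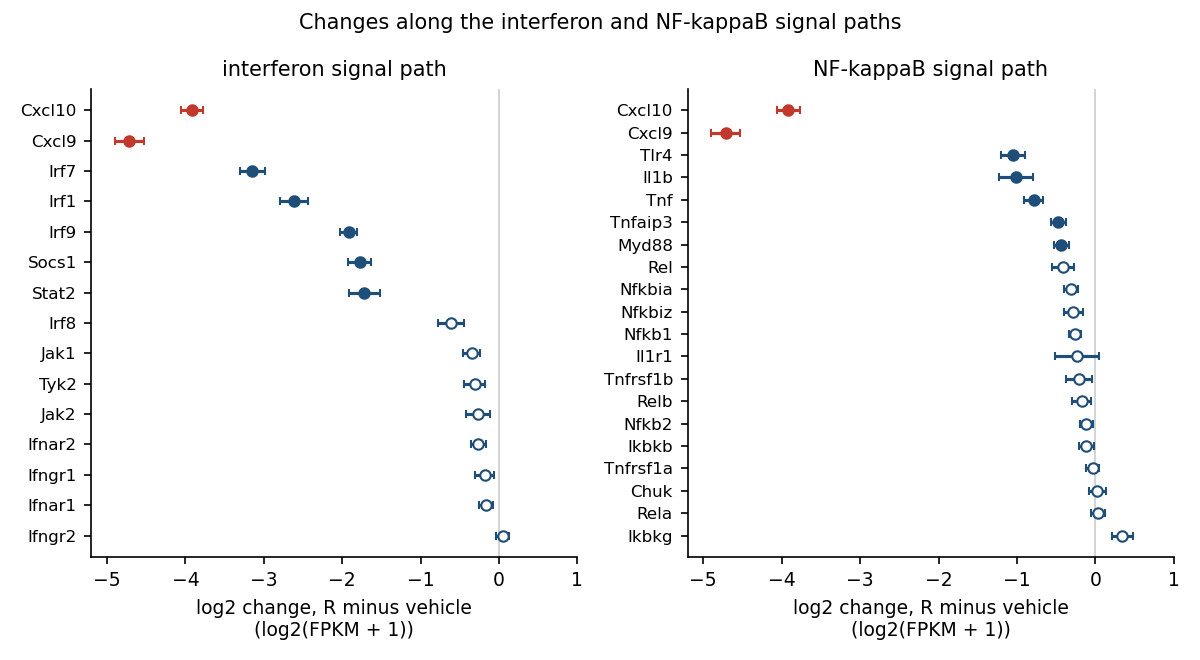
Log2 change of R against vehicle, from log2(FPKM + 1) (x axis) of each kept gene of the interferon path (left) and the NF-kappaB path (right), with Cxcl9 and Cxcl10 above them. Bars are SEs and filled points passed an adjusted p of 0.05 in limma; Irf7, Irf1, Irf9, Socs1 and Stat2 lie at -1.72 or below, and the interferon receptors and kinases at -0.35 or above.

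Interferon-gamma itself and transcripts of T and NK cells, the cells that make it and carry CXCR3, were low, and several were lower in R. Ifng had 0.317, 0.453 and 0.27 FPKM in vehicle and 0.0355, 0 and 0 FPKM in R. That was at most 11 reads in a vehicle library and at most 1 in an R library, below the filter, and the groups did not overlap. Ifnb1, which encodes interferon-beta, was listed at 0 in all 6 libraries. Of 20 listed T and NK cell markers 8 were lower in every R library and 1, Cd4, was higher. Only 3 of the 20 were kept, and over all kept genes 15.5% were lower and 13.9% higher in every R library. Such shares were not computed for genes below the filter. Cd4 had 0.974, 1.27 and 0.942 FPKM in vehicle and 4.25, 1.43 and 1.58 FPKM in R. Its log2 change was 0.64 (limma, adjusted p = 0.24). The summed level of the list was 9.07 to 16.4 FPKM in vehicle and 3.53 to 8.67 FPKM in R. Of its 3 kept members 1 fell, the granule gene Nkg7 (3.01, 2.16 and 1.48 FPKM in vehicle and 0, 0.243 and 0.182 FPKM in R; limma, adjusted p = 0.0079). Cd8a, a co-receptor of killer T cells, had 1.22, 1.41 and 0.508 FPKM in vehicle and 0.202, 0.122 and 0.167 FPKM in R. The T cell receptor gene Trbc2 had 1.95 to 3.01 and 0.321 to 1.86 FPKM (limma, adjusted p = 0.09), and Trac had 0.748 to 1.43 and 0.533 to 0.836 FPKM. Nkg7 passed the filter only through vehicle, and 4.43% of all kept genes fell. The list had 0 falls with a stricter filter, 3 with none and 2 without R replicate 1, where Trbc2 passed (limma, adjusted p = 0.017). With array quality weights the list had 1 rise, that of Cd4 (limma, adjusted p = 0.027). The NK cell genes Ncr1 and Klrb1c were at 0 in every library. The part of these cells in the fall of the ligands was not tested.

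**Figure D4:**
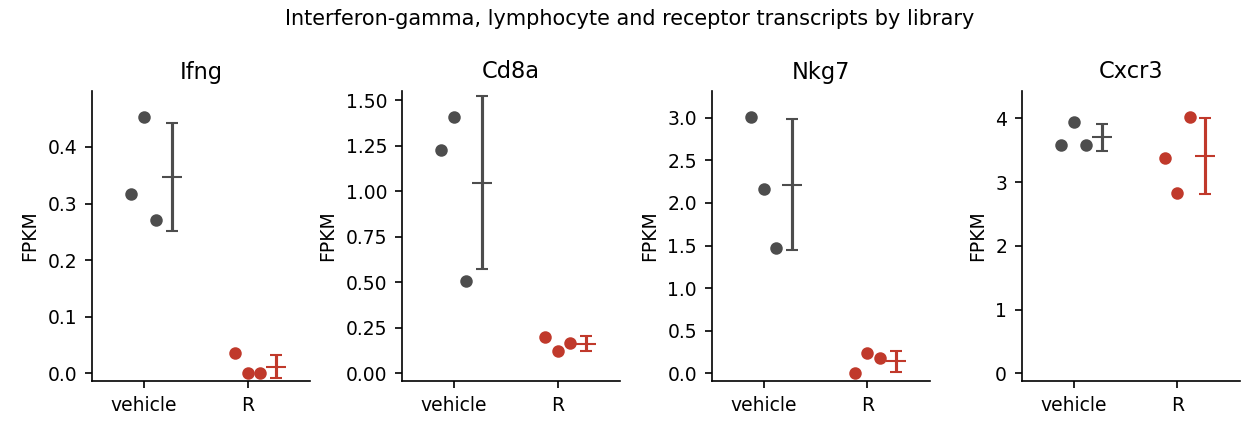
FPKM (y axis, linear, separate scales) of Ifng, Cd8a, Nkg7 and Cxcr3 in the 3 vehicle and 3 R libraries, with the mean and SD beside the points. Each R point of Ifng, Cd8a and Nkg7 lies below each vehicle point, at levels of 3.01 FPKM or less. The Cxcr3 points of both groups lie between 2.83 and 4.03 FPKM. Of the 20 listed T and NK cell markers 8 were lower in every R library and 1, Cd4, not shown, was higher.

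Markers of macrophages and stromal cells, which could make the ligands, were present in both groups. The 20 listed macrophage markers summed to 17641 to 23433 FPKM in vehicle and to 14421 to 18220 FPKM in R, with overlap. Of them 11, all kept, were lower in every R library, as were 15.5% of all kept genes. Of 19 kept 2 fell, the integrin gene Itgam and Aif1, and 0 rose (median log2 change -0.36), where 4.43% of all kept genes fell. The macrophage falls numbered 1 to 4 with 1 library left out, 4 with the replicate block and 7 with array quality weights. The 4 highest, Lyz2, C1qb, Ctss and C1qa, did not pass, with log2 changes of -0.23, -0.7, -0.49 and -0.9. C1qa passed in 4 other fits (adjusted p = 0.012 to 0.039), C1qb passed with the replicate block and with array quality weights (adjusted p = 0.013 to 0.039), and the call of Aif1 ended in 6 fits (adjusted p = 0.053 to 0.093). Of 15 stromal markers 10 were kept and 0 passed in limma, with 3 at an unadjusted p under 0.05. Of these kept markers 3, Pdgfrb, Col1a1 and Prrx1, were higher in every R library, with log2 changes of 0.65, 1.19 and 0.53. Over all kept genes 13.9% were so. Below the filter 2 stromal markers, Thy1 and Dcn, were lower in every R library. Pdgfrb passed with the replicate block and without R replicate 1 (limma, adjusted p = 0.024 and 0.039), and with array quality weights 3 stromal markers fell and 2 rose. The summed stromal level was 365 to 730 FPKM in vehicle and 650 to 1066 FPKM in R, led by Col1a1 and Col1a2, while the stromal markers Lepr, Dcn and Lum were at 0.321 FPKM or less in every library. Of 9 dendritic cell markers only Itgax was kept, with a log2 change of 0.11 that turned to -0.12 without R replicate 1, and Flt3, Ccr7 and Siglech were at 0 throughout. Which cells made the ligands was not tested.

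Around the ligands on chromosome 5, 1 gene passed. Of 16 other protein-coding genes that start within 500 kb of Cxcl10, 9 were kept. Of these 1 fell, 0 rose and 8 did not pass (median log2 change -0.13), where 4.43% of all kept genes fell. The gene that fell was Naaa, a lysosomal amidase whose start lies 70.7 kb away, from 16.5 ± 3.37 to 9.05 ± 0.76 FPKM (log2 change -0.78, limma, adjusted p = 0.026). Its call ended without each library other than vehicle replicate 3 and with no filter (limma, adjusted p = 0.059 to 0.083). Sdad1, a nucleolar gene whose start lies 38.4 kb from that of Cxcl10, had a log2 change of -0.35 (limma, adjusted p = 0.095). Stbd1, a glycogen-binding protein gene at 254 kb, was higher in every R library without passing (log2 change 0.66, limma, adjusted p = 0.093). Nup54, a nuclear pore gene on the other side at 86.3 kb, had -0.13, and the lysosomal membrane gene Scarb2 had 0.09. The starts of Cxcl9 and Cxcl11 lie 20.8 and 16.6 kb from that of Cxcl10.

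**Figure D5:**
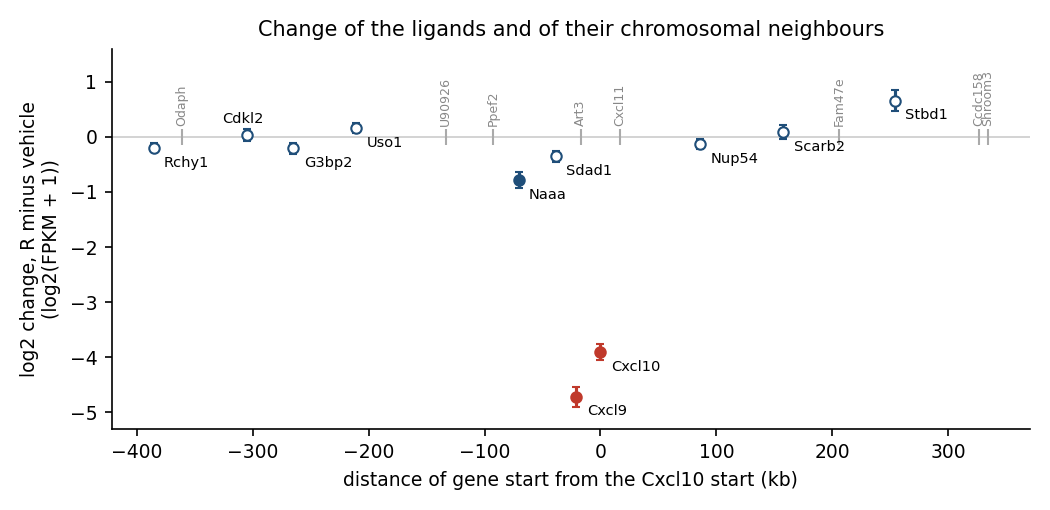
Log2 change of R against vehicle, from log2(FPKM + 1) (y axis) against the distance of each gene's start from that of Cxcl10 (x axis, kb). Bars are SEs, filled points passed an adjusted p of 0.05 in limma and grey ticks are genes below the filter; Cxcl9 and Cxcl10 lie at -4.72 and -3.91 and the 9 tested neighbours between -0.78 and 0.66.

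The kept genes most like each ligand across the 6 libraries were then listed. Likeness was the root mean square difference between log2(FPKM + 1) profiles, each centred on its own mean, and it is a description, since the profiles share the libraries and the contrast. Closest to Cxcl9 were Gbp2, a guanylate-binding GTPase (difference 0.21), Rtp4, a receptor chaperone (0.26), Tgtp2, a GTPase of the immunity-related family (0.28), and Acod1, the itaconate enzyme of macrophages (0.31). Serpina3g (0.31), H2-Aa (0.44), Cxcl10 (0.47) and Cd74 (0.5) followed. Closest to Cxcl10 were Gm12250 (0.34), Gm4951 (0.38), Serpina3g (0.39), Rtp4 (0.42), Tgtp2 (0.42), Gbp3 (0.43), the nucleic acid sensor Zbp1 (0.43) and Ifi27l2a (0.44). Serpina3g, Rtp4 and Tgtp2 were on both lists. Every R value of these genes, of Gm4951 and of Zbp1 was under 1 FPKM. Like both ligands, they passed the filter only through vehicle, so their likeness was partly set by it. Cxcl10 was thus the 7th closest gene to Cxcl9, and Cxcl9 the 12th closest to Cxcl10, at 0.47.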

How the data were processed

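RNA sequencing values of 6 libraries (3 R, 3 vehicle, grouped and numbered by sample titles) were used. The authors deposited one table of FPKM for 49328 genes. Per the submitters' processing notes, the genome was mm10 (GRCm38) and the tools included edgeR 3.18.1. The sources used here do not give the aligner, counter, annotation, strandedness or read length. The table's final line was cut off in an identifier. Symbols were found for 49302 genes in GENCODE M21 (GRCm38) and not for 26.

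FPKM times summed exon length was a whole multiple of 1 read, within 0.02 reads, for 98.3% to 98.4% of values under 20.5 reads, which gave reads and depth. These cover counting error only.

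Differences were tested with limma 3.58.1 (R 4.3.3) on log2(FPKM + 1), with a trend in the prior variance, over the 11862 genes with 3 or more libraries at FPKM 1 or higher, with Benjamini-Hochberg adjustment at 0.05. Single quantities had exact two-sided permutation tests over libraries. The 3 genes and the gene lists were chosen with earlier results of these data known, and 1 gene of the interferon list is not reported here. Named from each pathway list and the locus were genes past the threshold, up to 6; from the receptor list and interferon path every gene; from each marker list up to 4 of the highest and those past the threshold; and the 8 kept genes most like each ligand. Further genes were named after their values were seen. Motifs were searched in RefSeq promoters (GRCm38.p6). Alternatives varied the pseudocount, filter, normalization, variance model and block, and left out each library.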

Additional observations from a re-analysis of the deposited data

How the results depend on the processing

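The falls of Cxcl9 and Cxcl10 kept their direction and call under all 15 alternatives. The log2 change of Cxcl9 ran from -7.35 (pseudocount 0.1) to -2.67 (pseudocount 5), and that of Cxcl10 from -5.47 to -2.2, with adjusted p-values of 8.9e-06 to 0.0015. Leaving out 1 library gave -4.91 to -4.54 and -4.01 to -3.79. With the replicate block they were -4.72 and -3.91 (adjusted p = 0.00019 and 0.00028). Same-numbered libraries deviated from their group means with correlations of 0.14, -0.01 and -0.03 across genes, which did not meet the bar of 0.1 in every pair for taking the numbers as pairs. Cxcl11 passed only in the fit without a filter (-0.25, adjusted p = 0.04), its log2 difference was -1.52 with pseudocount 0.1, -0.053 with pseudocount 5 and -0.27 to -0.22 with 1 library left out, and the stricter filter, both normalizations, the other variance models and the block gave it no value. The summed ligand difference was -50.5 to -43 FPKM and the Cxcl9 to Cxcl10 difference -1.04 to -0.68 with 1 library left out.

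Counts depended more on the processing. Fits without a filter test more genes and fits without a library hold fewer samples; for the other settings the cause was not tested. Over all genes 525 fell and 284 rose. Without a filter these were 279 and 65, with array quality weights 1346 and 1114, and with 1 library left out 272 to 527 and 63 to 352. Array quality weights gave 9 falls on the interferon path, 9 falls and 1 rise on the NF-kappaB path, 3 falls among other chemokines, and 2 falls and 1 rise among locus neighbours. Without a filter the NF-kappaB path had 2 falls and the neighbours 0. With the replicate block the NF-kappaB path had 3 falls and the other chemokines 2, which was also the count of the latter with pseudocount 0.1. With 1 library left out the falls were 5 to 6, 2 to 4, 1 to 2 and 0 to 1 on the interferon path, the NF-kappaB path, other chemokines and neighbours. Singly, 51 other named genes were followed through the alternatives, and 30 of them kept direction and call throughout. Others, such as Cxcl5, Cxcl14, the NF-kappaB subunits and Stbd1, were followed only in the counts of their lists. Values changed sign for Ifngr2 and Itgax without R replicate 1 (-0.0012 and -0.12) and for S100a8 with quantile normalization (0.023), with array quality weights (0.29), without R replicate 3 (0.11) and without vehicle replicate 1 (0.07). With 1 library left out they ran from -0.0012 to 0.103, from -0.12 to 0.28 and from -0.18 to 0.11. For Cxcl11, 3 reads over the R group stand for 0.0137 FPKM, and a lower mean could not be told from 0 at this depth.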

Other observations

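Of 10 listed endothelial markers 9 were in the table, and 6 of them were higher in every R library, as were 13.9% of all kept genes. The list summed to 2.4 to 3.14 FPKM in vehicle and to 3.77 to 8.15 FPKM in R. Of the 6 only Cdh5 was kept, the others lying below the filter, and it did not pass (log2 change 0.82, limma, adjusted p = 0.13). The share over genes below the filter was not computed. The 5 B cell markers in the table summed to 1.61 FPKM or less in every library. Among the 5 neutrophil markers that were listed, S100a9, Mpo and Elane were at 0 throughout, and S100a8 and Csf3r did not pass (log2 changes -0.04 and -0.58).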
